A study of Danio rerio with 39 samples.

Results

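The step of normal zebrafish development from day 4 to day 5 was described from the 8 arrays of vehicle control embryos collected on those days, out of 39 arrays in the series. The arrays were chosen by their labels: 4 of DMSO day 5 and 4 of DMSO day 4, replicates 1 to 4 of each, which pair by replicate number. Embryos of the AB* strain spent 1 h in the solvent DMSO without dioxin at 4 to 5 h post-fertilization, were rinsed, and were then kept in glass vials of 15 to 20 embryos. Each array held RNA from a pool of whole embryos, labeled with Cy5, against a common reference in Cy3, RNA of the zebrafish embryonic fibroblast line Zf4. The other groups were vehicle control embryos of days 1 to 3, with 4 arrays a day, and embryos that received 1 ng/mL TCDD (dioxin) for the same hour, with 4 arrays on every day except day 2, which had 3. RNA was extracted at the same morning hour on each day, and each replicate number was an independent experiment. DMSO was thus common to all groups, and no group was free of it.

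At this stage the zebrafish changes over from an embryo that lives on its yolk to a larva that can feed. The exocrine pancreas fills with digestive enzymes, the gut lumen and its absorptive cells mature, and the liver takes up metabolic work for the body. Cell division, which built the embryo, becomes confined to fewer places as tissues differentiate. Every value below is a log2 ratio of embryo to Zf4 signal or a difference between such ratios, so a difference of 1 is a doubling. Because whole embryos were pooled, a lower value can come from fewer cells of a type or from less RNA per cell, and these cannot be told apart.

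On the 8 arrays, the embryo RNA gave a signal well above background at 16329 to 18357 of the 21495 probes, and 29 to 77 spots were saturated. Across all probes, arrays of day 5 correlated with each other at r = 0.902 to 0.964 and arrays of day 4 at 0.922 to 0.96. The labels were set against the dioxin-exposed arrays, whose group means do not enter the comparison, although these arrays share in its estimate of the spread. All 4 arrays of day 4 were most like the exposed mean of day 4. The arrays of day 5 from replicates 2 and 4 were most like the exposed mean of day 5, and those from replicates 1 and 3 were slightly more like that of day 4 (r = 0.938 to day 4 and 0.935 to day 5 in replicate 1, and 0.931 and 0.928 in replicate 3). Of 13 genes of the exocrine pancreas, 12 were above background on all 8 arrays. *cyp1a*, the classic dioxin target, averaged 3.95 ± 0.175 on day 5 and 2.99 ± 0.34 on day 4 (SD, n = 4), with an adjusted p of 0.231.

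Day 5 embryos differed from day 4 embryos at 1476 of 21495 probes (6.87%; limma with the experiment as a block, Benjamini-Hochberg adjusted p under 0.05, the threshold for every call below). Of these, 571 were higher on day 5 (2.66%) and 905 were lower (4.21%). At the study's own threshold of an unadjusted p under 0.01, 2014 probes passed (9.37%). In the deposited ratio the rises were the larger changes: 128 probes rose by over 1 on the log2 scale and 20 fell by as much. The median size was 0.518 among the rises and 0.384 among the falls. These sizes depend on the processing: the rises of *itih3b.1* and *aqp10a* were far smaller with another background correction, as given below. In 551 of the 571 rises and 877 of the 905 falls, all 4 experiments changed in the same direction, and 487 and 840 of them had no overlap between the 4 arrays of day 5 and the 4 of day 4. These probes were chosen for their change on the same arrays, so both counts are given as a description. Counted with 1 probe for each of 7049 named genes, 274 genes rose (3.89%) and 517 fell (7.33%), with a median change of -0.02 over all named genes. Of the 7049, called or not, 489 lay apart and higher on day 5 and 913 apart and lower.

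The balance of rises and falls differed between the ratio and the embryo channel. With the embryo channel alone, each array scaled to its 75th percentile, 415 probes were higher on day 5 and 370 lower, so that rises made up 52.9% of the calls instead of 38.7%. The calls also rested on the spread shared by all 39 arrays: in a fit of the 8 arrays alone, limma called no probe (lowest adjusted p 0.0558), although 4229 probes had an unadjusted p under 0.05. Leaving out 1 experiment gave 911 calls without replicate 1, 798 without replicate 2, 880 without replicate 3 and 677 without replicate 4. Scan batches were told apart by scan date. For these days, replicates 1 to 3 of the vehicle control were in scan batch 2 and replicate 4 in scan batch 3. Scan batch 1 held only arrays of days 1 to 3. A fit of all arrays of scan batch 2, with other days and exposed embryos included, called 786 probes. Scan batch 3 held a single vehicle control pair of these days, which allows no test.

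The exocrine pancreas had the highest median change of the lists. Of 13 measured genes of its digestive enzymes, 8 rose on day 5 and none fell (274 of 7049 named genes rose), with a median change of 1.26 against -0.02 over all named genes. The median was positive in every experiment, at 1.035, 1.406, 1.479 and 1.038 in replicates 1 to 4. The list held amylases, which cut starch, elastases, chymotrypsin, trypsins and carboxypeptidases, which cut protein, and the bile salt-stimulated lipase.

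*amy2a*, a pancreatic amylase, measured 7.36, 6.91, 6.92 and 7.22 on day 5 and 4.93, 3.67, 4.04 and 4.86 on day 4. Every array of day 5 was above every array of day 4, by a fitted 2.73 ± 0.27 (SE; 6.62-fold, adjusted p = 2.57e-07). Its neighbour in sequence *amy2al2*, which was not on the list, moved likewise, with 7.69, 6.98, 7.28 and 7.46 on day 5 against 5.95, 4.47, 5.14 and 5.79 on day 4 (difference 2.02, adjusted p = 1.44e-06). Probes for amylases can bind near-identical copies, and *amy2al1*, a further copy, had a difference of -0.46 and was not called.

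Among the elastases, *cela1.5* measured 5.17, 5.1, 5.00 and 5.68 on day 5 and 3.71, 2.49, 1.77 and 3.95 on day 4, a difference of 2.25 ± 0.27 (SE; 4.77-fold, adjusted p = 3.24e-06). The day 4 arrays of replicates 1 and 4 were well above those of replicates 2 and 3, whereas the 4 arrays of day 5 lay close together. *cela1.3* was at 2.90 ± 0.22 on day 5 and 1.34 ± 0.50 on day 4 (SD, n = 4; difference 1.57, adjusted p = 5.62e-05). *ela2l* was at 5.98 ± 0.17 on day 5 and 4.48 ± 0.53 on day 4 (difference 1.5, adjusted p = 0.000212), and *cela1.6* also rose (difference 1.31, adjusted p = 7.94e-05). The same split of the day 4 arrays, replicates 1 and 4 over replicates 2 and 3, was seen in these 3 other elastases and in *amy2a*.

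The chymotrypsinogen gene *ctrb.1* measured 3.43, 2.69, 2.37 and 3.33 on day 5 and 1.43, 0.76, 0.86 and 1.3 on day 4 (difference 1.87 ± 0.16 SE, 3.65-fold, adjusted p = 5.03e-08). No array of day 5 reached down to the values of day 4, although of its 3 probes only this one was called. The carboxypeptidase gene *cpa5* (0.88, adjusted p = 0.00918) and the lipase gene *cel.1* (1.25, adjusted p = 0.0305) completed the 8, and in *cel.1* the arrays of both days overlapped. The count of 8 was 6 without replicate 3 or 4, with medians of 0.847 and 1.28. *cpa5* lost its call without replicate 3 (0.77, adjusted p = 0.134) or 4 (0.90, adjusted p = 0.0536), and *cel.1* without replicate 2 (1.21, adjusted p = 0.168), 3 (0.85, adjusted p = 0.202) or 4 (1.28, adjusted p = 0.186). The members that did not pass were *prss1* (0.46) and *prss59.1* (0.71), both trypsins, *cpa1* (0.60), *cpa4* (0.92) and *amy2al1*. In this list the spread on day 5 was smaller than on day 4 for 12 of 13 genes (median SD 0.219 against 0.501), beside 3640 of 7049 over all named genes.

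**Figure D1:**
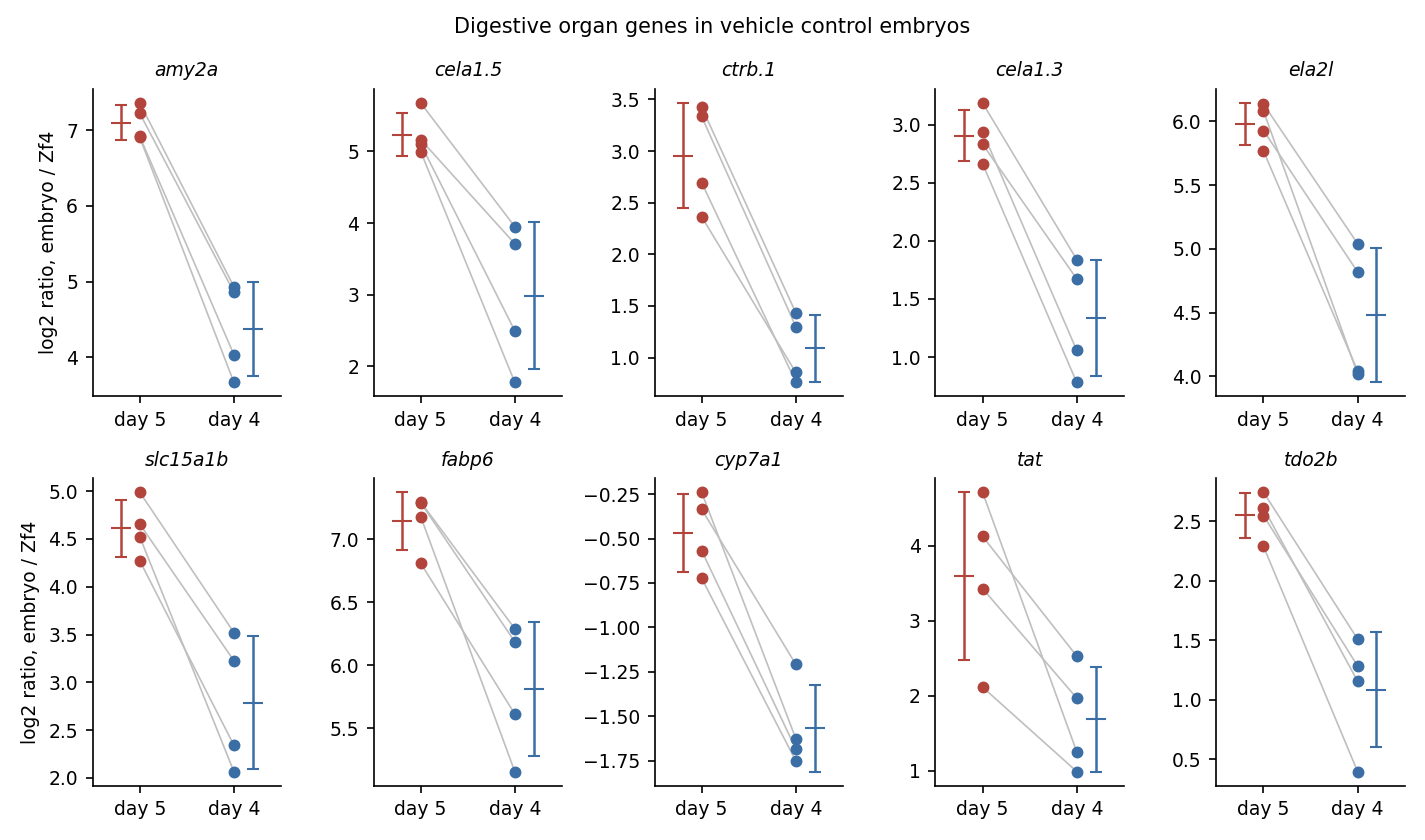
Log2 ratio of embryo to Zf4 signal for 10 genes of the pancreas, intestine and liver on each array of vehicle control embryos, with day 5 left of day 4, grey lines joining arrays of the same experiment and bars giving mean and SD (n = 4). In all of them but *tat* the 4 arrays of day 5 lie above the 4 of day 4, and each line falls from day 5 towards day 4.

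The intestine added fewer calls. Of 16 measured intestinal genes 3 rose (18.8%, beside 3.89% of all named genes) and none fell, with a median change of 0.32. Without replicate 3, 1 rose. *slc15a1b*, the transporter that takes up the small peptides left by protein digestion, measured 4.99, 4.52, 4.27 and 4.66 on day 5 and 3.52, 2.06, 2.34 and 3.23 on day 4 (difference 1.82 ± 0.23 SE, 3.54-fold, adjusted p = 7.36e-06). *fabp6*, which carries bile acids in absorptive cells, was at 7.14 ± 0.23 on day 5 and 5.81 ± 0.53 on day 4 (SD, n = 4; 2.52-fold, adjusted p = 0.00416). For both genes the groups were apart, but *fabp6* lost its call without replicate 3 (1.1, adjusted p = 0.139). The list as a whole did not shift evenly: its median was -0.102 in replicate 1 and between 0.26 and 0.698 in the other 3, and it was 0.06 with normexp background correction. The apolipoprotein gene *apoa4b.1* (-0.50) and the villin gene *vil1* (-0.33) had values below 0 without being called.

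Among 32 genes of amino acid breakdown, a task of the liver, 6 rose and 2 fell, with a median of 0.20. These shares were 18.8% and 6.25%, beside 3.89% and 7.33% of all named genes. The rises numbered 3 without replicate 3 and 3 within scan batch 2. Neither fall was called without any 1 replicate or without the block. Of the 6 rises, 4 lay in the breakdown of aromatic amino acids. *tdo2b*, the first enzyme of tryptophan breakdown, measured 2.75, 2.55, 2.29 and 2.62 on day 5 and 1.51, 1.28, 0.40 and 1.16 on day 4, with the groups apart (difference 1.47 ± 0.22 SE, 2.76-fold, adjusted p = 5.62e-05). *tat*, *hpda* and *hgd* encode successive enzymes of tyrosine breakdown.

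*tat*, the first of these, measured 3.43, 4.71, 2.12 and 4.12 on day 5 and 1.97, 1.26, 0.99 and 2.53 on day 4 (difference 1.91, adjusted p = 0.00424). Its groups overlapped by the array of replicate 3 on day 5, and the call was lost without replicate 2 (1.39, adjusted p = 0.178). *hpda* was at 2.22 ± 0.11 on day 5 and 1.63 ± 0.27 on day 4 (SD, n = 4; adjusted p = 0.014), a call lost without replicate 1 (adjusted p = 0.0915) or 3 (adjusted p = 0.227). *hgd* was at 5.23 ± 0.13 on day 5 and 4.27 ± 0.71 on day 4 (adjusted p = 0.00394), where replicate 3 of day 4 stood low at 3.21 and the difference was 0.64 without that replicate and 0.96 with it. The last enzyme of the route, *fah*, had a difference of 0.17 and was not called, and *pah*, which makes tyrosine from phenylalanine, had 0.86 and was not called.

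Of 36 genes of bile acid and drug metabolism, 5 rose and 2 fell (median 0.12), with 3 rises without replicate 2 and 2 without replicate 3. These shares were 13.9% and 5.56%, beside 3.89% and 7.33% of all named genes, for the 5 rises and 2 falls. *cyp7a1*, the rate-limiting enzyme of bile acid synthesis, measured -0.24, -0.72, -0.34 and -0.57 on day 5 and -1.63, -1.75, -1.21 and -1.68 on day 4. The groups were apart by a fitted 1.1 ± 0.33 (SE; 2.15-fold, adjusted p = 0.0355), but the call was lost without replicate 1, 3 or 4 (adjusted p = 0.246, 0.154 and 0.128), without the block (adjusted p = 0.0699) and with normexp background correction (0.55, adjusted p = 0.149). Among cytochromes P450 of the CYP2 family, *cyp2n13* was at 5.56 ± 0.10 on day 5 and 4.05 ± 0.58 on day 4 (SD, n = 4; difference 1.51, adjusted p = 0.000103) and kept its call without any 1 experiment. *cyp2ad2* measured 2.58, 4.30, 4.50 and 4.45 on day 5 and 3.13, 1.22, 0.16 and 2.37 on day 4, so that replicate 1 ran the other way, and its call (2.24, adjusted p = 0.00653) was lost without replicate 2 (1.96, adjusted p = 0.179) or 3 (1.54, adjusted p = 0.169). The 2 falls were the conjugating enzymes *gstp1.2* (-0.69, adjusted p = 0.000136) and *sult2st1* (-0.67, adjusted p = 4.82e-05).

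Plasma proteins made by the liver gave 1 call in 26 genes, a rise, or 3.85% beside 3.89% of all named genes. The call was *gc*, the vitamin D-binding protein, at 5.52, 5.57, 5.78 and 6.27 on day 5 and 4.97, 4.29, 3.24 and 4.72 on day 4 (difference 1.48, adjusted p = 0.00514). It was lost without replicate 3 (1.13, adjusted p = 0.128). The others ran from -0.93 for *ttpa* to 1.35 for *ttr*, with 14 genes of the 26 above 0, beside 3241 of 7049 named genes. *dio1*, the deiodinase that activates thyroid hormone and is known from liver, was at 3.25 ± 0.26 on day 5 and 1.55 ± 0.34 on day 4 (SD, n = 4; 3.24-fold, adjusted p = 6.45e-07), and kept its call without any 1 experiment.

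The 2 largest fitted rises in the ratio were those of *itih3b.1* and *aqp10a*, which were on no list, and with normexp they lay far below *amy2a* (2.53). *itih3b.1*, an inter-alpha-trypsin inhibitor heavy chain, a plasma protein that binds hyaluronan, measured 3.27, 6.25, 3.88 and 6.15 on day 5 and 2.03, 1.2, 0.00 and 1.57 on day 4. It was above background on all 4 arrays of day 5 and on 2 of 4 of day 4 (fitted difference 3.69, adjusted p = 0.00052), and with normexp the difference was 0.50 (adjusted p = 0.000907). *aqp10a*, an aquaglyceroporin, measured 7.21, 5.80, 3.90 and 6.25 on day 5 and 2.48, 2.76, 2.90 and 3.38 on day 4 (2.91, adjusted p = 0.00285). With normexp that difference was 0.40 (adjusted p = 9.69e-05), in the same direction but far smaller. Both genes were called without any 1 experiment.

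Other genes among the 15 largest rises were less even. The gamma-crystallin gene *crygm1*, which codes for a lens protein, was at 1.36, 3.17, 2.97 and 3.16 on day 5 and -1.25, -0.34, 0.75 and 1.13 on day 4, above background on 3 of 4 arrays of day 4 (2.6, adjusted p = 0.0104). It lost the call without replicate 2 (2.29, adjusted p = 0.151) or 4 (2.78, adjusted p = 0.0649). This was the 1 call among 30 lens genes, a rise (3.33%, beside 3.89% of all named genes). Of the 30, 24 had a value above 0, beside 3241 of 7049 named genes. *xpnpep2*, an aminopeptidase, was at 4.14 ± 1.14 on day 5 and 2.15 ± 0.53 on day 4 (SD, n = 4; adjusted p = 0.0132), a call that rested on replicate 2 (1.2 without it, adjusted p = 0.279). *mcoln2*, a lysosomal cation channel, was above background on 3 of 4 arrays of each day (2.25, adjusted p = 0.0152), and its call was lost without replicate 1 (1.78, adjusted p = 0.109), 2 (2.74, adjusted p = 0.0589) or 3 (1.94, adjusted p = 0.113). The serine protease gene *ovch1* was steadier, at 2.25 ± 0.34 on day 5 and 0.52 ± 0.29 on day 4 (adjusted p = 1.44e-05), although its other probe had a difference of 0.10. The probes of *or42e3*, *entpd8* and *fam83fb* also ranked among the 15, but the first 2 were not well above background on any of the 8 arrays and the third on none of day 5, so no fold is given for them.

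Genes of the secretory pathway of the endoplasmic reticulum (ER) fell. The ER folds proteins bound for export with a set of chaperones and disulfide isomerases that are known to rise together in the unfolded protein response. Of 56 measured genes of ER folding, translocation and early transport, 22 fell and 1 rose (517 of 7049 named genes fell), with a median of -0.24. The medians by experiment were -0.288, -0.259, -0.243 and -0.206. None of the 22 genes had overlap between the days, as was the case for 840 of the 905 called falls of all probes. Of the 56 genes, called or not, 33 lay apart and lower on day 5, beside 913 of 7049 named genes.

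*creld2*, an ER stress-responsive isomerase, measured -1.33, -1.1, -0.95 and -1.52 on day 5 and -0.23, -0.04, 0.19 and -0.24 on day 4 (difference -1.14 ± 0.15 SE, adjusted p = 1.26e-05). *hspa5* (BiP), the main ER chaperone, measured -0.55, -0.26, -0.48 and -0.42 on day 5 and 0.35, 0.48, 0.37 and 0.27 on day 4 (difference -0.79 ± 0.11 SE, adjusted p = 4.49e-05). *hsp90b1* (GRP94), its partner of the HSP90 family, measured 0.01, 0.33, 0.34 and 0.16 on day 5 and 0.93, 1.13, 1.18 and 1.03 on day 4 (difference -0.86 ± 0.13 SE, adjusted p = 6.52e-05). In these 3 genes no array of day 5 reached the lowest array of day 4.

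The disulfide isomerases *pdia4* (-0.95, adjusted p = 7.58e-06) and *pdia6* (-0.81, adjusted p = 1.44e-05), the calreticulin gene *calr3b* (-0.96, adjusted p = 1.39e-05) and the BiP cofactors *dnajb11* (-0.81, adjusted p = 3.67e-05) and *sdf2l1* (-0.66, adjusted p = 1.44e-05) fell as well, and each kept its call without any 1 experiment. Outside the list, the ER calcium-binding protein gene *rcn3* was at -1.03 ± 0.21 on day 5 and 0.02 ± 0.13 on day 4 (SD, n = 4; adjusted p = 1.02e-06). *kdelr2b*, the receptor that returns escaped chaperones, fell too (-0.40, adjusted p = 3.08e-05), whereas *xbp1*, the transcription factor of the unfolded protein response, had -0.14 and *edem1*, a gene of ER-associated degradation, -0.03, neither called. The single rise was *erp44* (0.23, adjusted p = 0.0226), which was not called without any of the 4 replicates (adjusted p = 0.0738 to 0.165). *pdia2*, an isomerase known from the pancreas, had 0.94 and was not called.

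The wider list of 72 chaperones held 17 falls (23.6%) and 1 rise, *hsf2* (1.39%), beside 7.33% and 3.89% of all named genes. The list had a median of -0.11. *hsf2* was called at 0.39 (adjusted p = 0.0269) and lost the call without replicate 2, 3 or 4 (adjusted p = 0.0834, 0.112 and 0.236). Besides the 4 that the ER list also holds (*hsp90b1*, *dnajb11*, *hspa5* and *dnajc3a*), the falls took in the ER prolyl isomerases *fkbp7* (-0.79, adjusted p = 6.46e-05), *fkbp10b* (-0.76, adjusted p = 2.9e-07) and *ppib* (-0.48, adjusted p = 3.32e-06), which act on collagen and other secreted proteins. The mitochondrial chaperonin gene *hspd1* fell (-0.63, adjusted p = 0.000197), as did *ptges3b*, an HSP90 cochaperone (-0.67, adjusted p = 3.84e-05). The cytosolic chaperones *hspa8* (0.03) and *hsp90ab1* (-0.13) were not called, and of the subunits of the cytosolic chaperonin only *cct3* (-0.19, adjusted p = 0.0415) was, and it was not called without any of the 4 replicates (adjusted p = 0.12 to 0.24). *fkbp5*, a cochaperone of the glucocorticoid receptor, measured -2.67, -2.6, -2.57 and -3.31 on day 5 and -1.29, -2.33, -1.77 and -1.77 on day 4 (-1.0, adjusted p = 0.0194). Its call was lost without replicate 1 (adjusted p = 0.168), 3 (adjusted p = 0.0517) or 4 (adjusted p = 0.233).

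**Figure D2:**
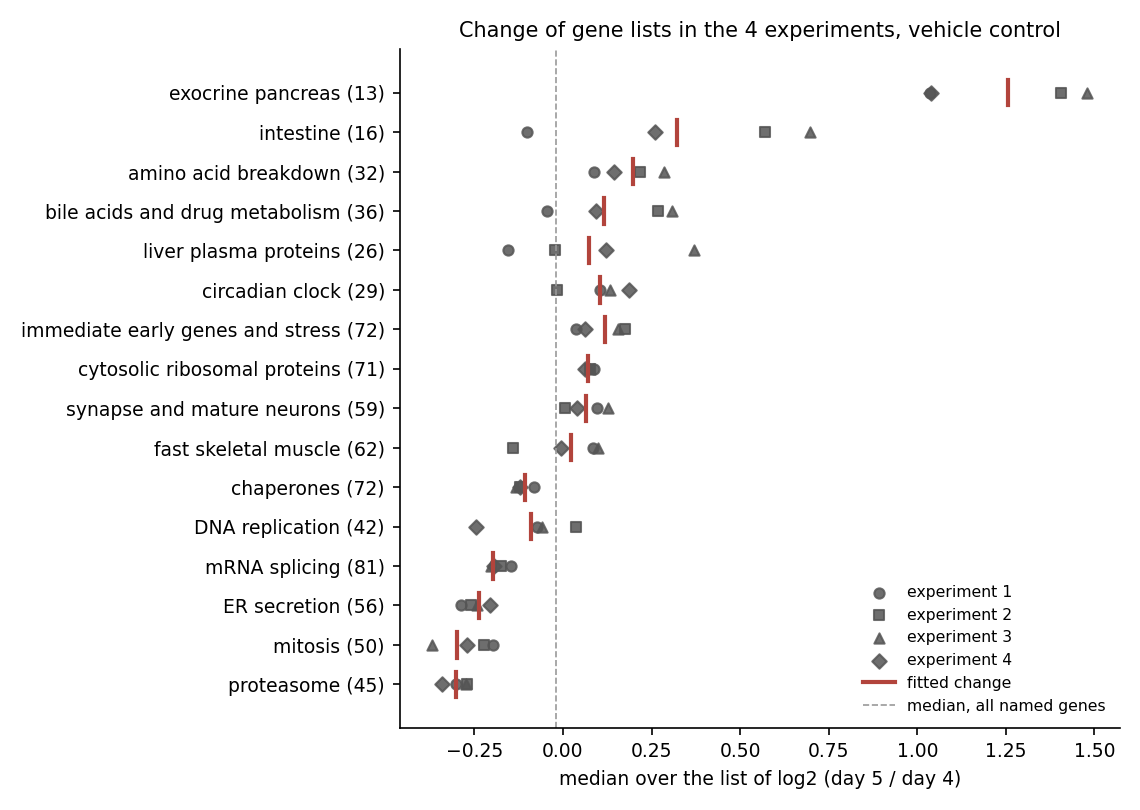
Median over each gene list of the log2 ratio of day 5 over day 4 in vehicle control embryos, by experiment (grey symbols) and from the fit (red bar), with the number of genes measured in brackets and the median of all named genes as a dashed line. The exocrine pancreas list lies farthest to the right, at 1.26, and the lists of ER secretion, mitosis and proteasome lie to the left of the dashed line in all 4 experiments.

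Proteasome genes fell as a group by small, regular amounts. The proteasome degrades proteins tagged with ubiquitin, in a core cylinder of alpha and beta subunits capped by a regulatory particle of ATPases and lid subunits. Of 45 measured genes 26 fell (57.8%, beside 7.33% of all named genes) and none rose. The median was -0.30 (-0.301, -0.272, -0.273 and -0.342 in replicates 1 to 4). None of the 26 overlapped between the days, as was the case for 840 of the 905 called falls of all probes. Of the 45 genes, called or not, 29 lay apart and lower on day 5, beside 913 of 7049 named genes. The size of a fall was modest throughout, from -0.57 to -0.19.

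The lid subunit gene *psmd12* measured -0.82, -0.77, -0.67 and -0.78 on day 5 and -0.26, -0.13, -0.14 and -0.22 on day 4 (difference -0.57 ± 0.09 SE, adjusted p = 0.000113). The ATPase gene *psmc3* measured -0.57, -0.50, -0.59 and -0.56 on day 5 and -0.05, -0.14, -0.08 and -0.06 on day 4 (difference -0.47 ± 0.08 SE, adjusted p = 0.000169). Within each day the SD of *psmc3* was 0.037 on day 5 and 0.039 on day 4. Calls came from every part of the particle: the ATPases *psmc1a*, *psmc1b*, *psmc2*, *psmc3*, *psmc4*, *psmc5* and *psmc6*, the core subunits *psma6a* (-0.45, adjusted p = 0.00179) and *psmb5* (-0.40, adjusted p = 0.000437), and the assembly factor *pomp* (-0.32, adjusted p = 0.0125). Without replicate 4, *psmc1b*, *psmc2*, *psmc5* and *pomp* were not called (adjusted p = 0.0549, 0.0945, 0.0643 and 0.177), nor was *pomp* without replicate 2 (adjusted p = 0.0857).

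Subunits of the immunoproteasome, the form known from immune cells, were not called, with values of -0.05 for *psmb8a*, -0.35 for *psmb9a*, 0.12 for *psmb10* and 0.13 for *psmb12*, and neither were the activators *psme1* (0.18) and *psme2* (0.32). The activator gene *psme3* was called as a fall (-0.38, adjusted p = 0.0108). The count of falls was 10 with the embryo channel alone, where the median was -0.34. It was 13 within scan batch 2, 17 without replicate 1 and 11 without replicate 4. The median stayed between -0.34 and -0.28 under every setting tried. *psmb9a* was not above background on any array of day 5 and was on 1 of day 4.

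Mitotic genes fell and genes of DNA replication did not pass the test. Of 50 mitotic genes, 20 fell (40.0%, beside 7.33% of all named genes) and none rose (median -0.30). Of the 20, 17 were apart between the days, beside 840 of the 905 called falls of all probes. Of all 50, called or not, 18 lay apart and lower on day 5, beside 913 of 7049 named genes. *ccnb1*, cyclin B1, measured -2.14, -1.93, -1.95 and -2.05 on day 5 and -1.40, -1.21, -1.18 and -1.31 on day 4 (difference -0.74 ± 0.10 SE, adjusted p = 2.09e-05). *cdk1*, the kinase that cyclin B activates, was at -2.17 ± 0.12 on day 5 and -1.62 ± 0.16 on day 4 (SD, n = 4; adjusted p = 5.42e-05). *cdc20*, which switches on the anaphase-promoting complex, measured -3.22, -3.04, -3.06 and -3.14 on day 5 and -2.55, -2.27, -2.38 and -2.54 on day 4 (-0.68 ± 0.09 SE, adjusted p = 7.69e-06). These were levels already well below those of the Zf4 line, a cycling culture, and they were lower still on day 5.

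The mitotic kinase *plk1* (-0.65, adjusted p = 0.000161), the spindle midzone gene *prc1a* (-0.60, adjusted p = 0.0019), the motor *kif11* (-0.55, adjusted p = 0.000512) and the survivin gene *birc5a* (-0.52, adjusted p = 7.67e-05) fell too and kept their calls without any 1 experiment. A second probe of *birc5a* had a difference of 0.17. *mki67* (0.01), *top2a* (0.08) and *aurkb* (-0.07), genes often used to mark dividing cells, were not called. With normexp 14 mitotic genes fell and the median was -0.10. The falls numbered 12 with the embryo channel alone, 12 within scan batch 2, 12 without replicate 2 and 10 without replicate 4.

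Of 42 genes of DNA replication none was called by limma, with 7 below 0 and 1 above at an unadjusted p under 0.05 and a median of -0.09. The helicase subunits *mcm3* (0.04), *mcm4* (0.13), *mcm5* (-0.01) and *mcm7* (-0.03) and *pcna* (-0.17), the sliding clamp, were all within 0.2 of 0. The lowest was *dut*, which clears dUTP, at -0.38. Whether the mitotic and the replication lists differ from each other was not tested.

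Genes of mRNA splicing fell. Of 81 measured genes 20 fell (24.7%, beside 7.33% of all named genes) and none rose, with a median of -0.20. Of the 81, 69 had a value below 0, beside 3768 of 7049 named genes. *hnrnpa0b*, an hnRNP that binds RNA, measured -0.83, -0.78, -0.72 and -0.92 on day 5 and -0.47, -0.31, -0.33 and -0.51 on day 4 (-0.41 ± 0.06 SE, adjusted p = 0.000108). *lsm1* is counted in this list, although it is in fact a subunit of the complex that decaps mRNA in the cytoplasm. It was at -1.0 ± 0.14 on day 5 and -0.53 ± 0.09 on day 4 (SD, n = 4, adjusted p = 0.00124). *srsf3b*, an SR protein, also fell (-0.37, adjusted p = 0.000841). These 3 kept their calls without any 1 experiment.

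The other falls took in 5 core Sm proteins of the small ribonucleoproteins, *snrpd3*, *snrpd3l*, *snrpe*, *snrpf* and *snrpg*, at -0.37 to -0.24, none of which was called without replicate 4, and the A/B-type hnRNP gene *hnrnpaba* (-0.42, adjusted p = 0.00164). The call of *hnrnpaba* was lost without replicate 4 (-0.41, adjusted p = 0.0544). For *hnrnpa0b*, 2 of 5 probes were called and the differences ran from -0.53 to 0.27. The number of falls was 5 with the embryo channel alone, at a median of -0.19, and 6 within scan batch 2. It was 13, 11, 12 and 5 without replicates 1 to 4.

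**Figure D3:**
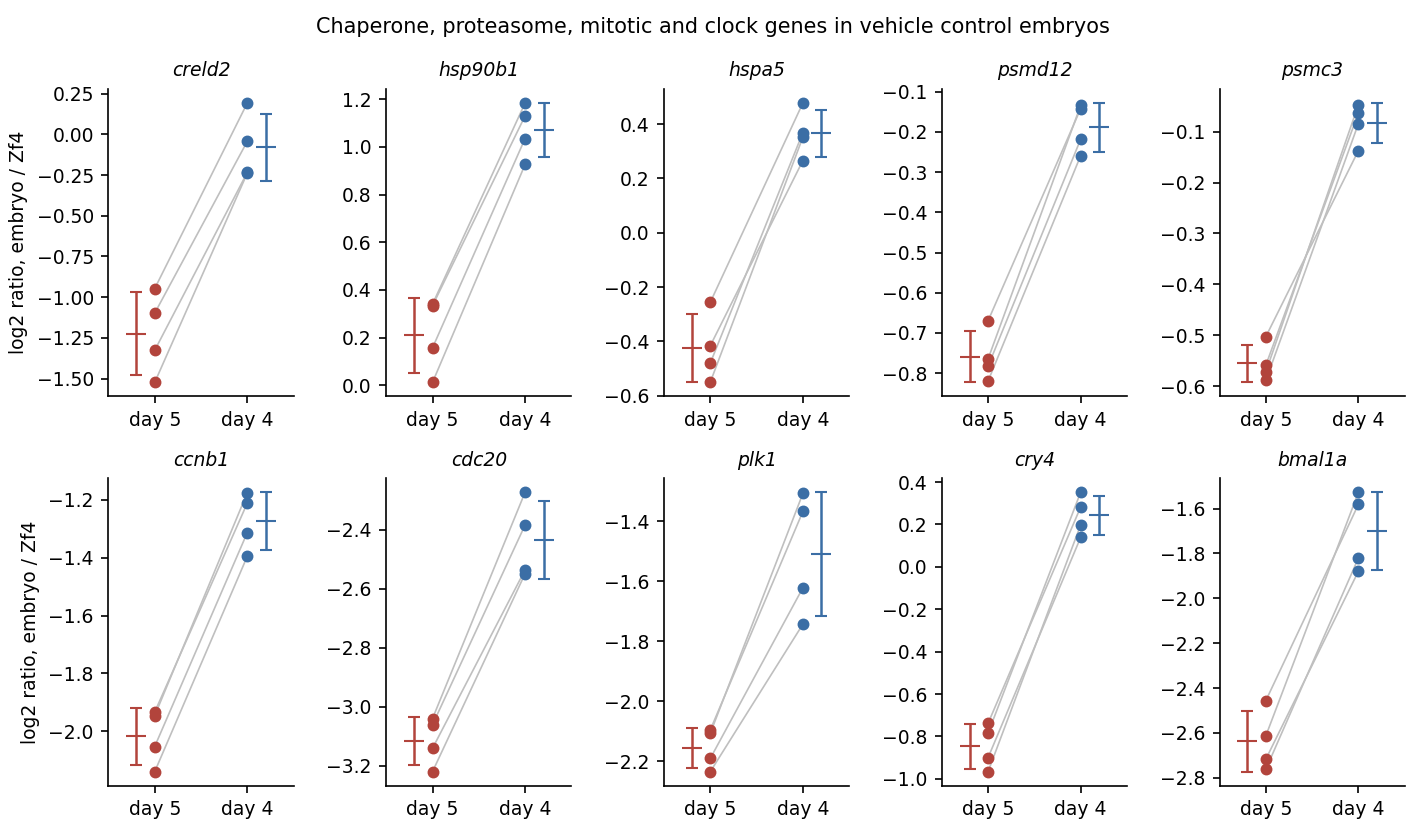
Log2 ratio of embryo to Zf4 signal for 10 genes of ER folding, the proteasome, mitosis and the circadian clock on each array of vehicle control embryos, with day 5 left of day 4, grey lines joining arrays of the same experiment and bars giving mean and SD (n = 4). In every panel all 4 arrays of day 5 lie below all 4 of day 4, and the vertical scale differs between panels.

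Circadian clock genes changed in both directions. In the vertebrate clock, CLOCK and BMAL proteins drive the period and cryptochrome genes, whose products then repress CLOCK and BMAL, and zebrafish have several copies of each. Of 29 measured genes 4 rose and 4 fell (13.8% each, beside 3.89% and 7.33% of all named genes). On the activating side, *bmal1a* measured -2.72, -2.61, -2.46 and -2.76 on day 5 and -1.88, -1.53, -1.58 and -1.82 on day 4 (-0.94 ± 0.08 SE, adjusted p = 6.25e-08). Its paralog *bmal1b* was at -0.24 ± 0.24 on day 5 and 0.31 ± 0.07 on day 4 (SD, n = 4; adjusted p = 0.0172), a call lost without replicate 1 (adjusted p = 0.0592), 2 (adjusted p = 0.147) or 4 (adjusted p = 0.213). *clocka* (0.24) and *clockb* (-0.22) were not called.

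Among the cryptochrome and period genes, *cry1b* measured 2.01, 1.67, 2.21 and 1.81 on day 5 and 1.48, 0.75, 0.99 and 1.36 on day 4 (0.78 ± 0.19 SE, adjusted p = 0.00929). *cry2*, which the array annotation names *cry3*, was at 1.96 ± 0.28 on day 5 and 1.16 ± 0.31 on day 4 (SD, n = 4, adjusted p = 0.00607). Whether this copy acts as a repressor was not tested. *per1b* was at 1.3 ± 0.14 on day 5 and 0.72 ± 0.11 on day 4 (SD, n = 4, adjusted p = 0.0126). The arrays of both days were apart in all 3 genes. Without replicate 2 none of the 3 was called (adjusted p = 0.117, 0.167 and 0.118), *cry1b* was not called without replicate 3 (adjusted p = 0.0626), and *cry2* and *per1b* were not called without replicate 4 (adjusted p = 0.0768 and 0.0869).

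*cry4*, a cryptochrome that is not counted among the repressors, measured -0.97, -0.78, -0.74 and -0.90 on day 5 and 0.20, 0.35, 0.28 and 0.14 on day 4 (-1.09 ± 0.11 SE, 2.13-fold lower, adjusted p = 2.61e-07), and both of its probes were called. The output factor *tefa* rose (0.55, adjusted p = 0.00595) with overlapping groups and lost its call without replicate 2 (adjusted p = 0.0546) or 4 (adjusted p = 0.0654). *cirbpa*, a cold-inducible RNA-binding protein, was lower on day 5 (-0.47, adjusted p = 0.0039) without a call when replicate 3 (adjusted p = 0.0636) or 4 (adjusted p = 0.051) was left out, and its 5 probes ran from -0.47 to 1.2. *per2* (0.15), *per3* (0.22) and *nr1d1* (0.91) were not called. Over the list, no rise remained called without replicate 2 and 1 without replicate 4, and 2 falls without replicate 4.

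Among 72 stress and growth-response genes 9 rose and 3 fell (12.5% and 4.17%, beside 3.89% and 7.33% of all named genes). The list had 4 rises and 4 falls without replicate 3, and 3 rises and 3 falls without replicate 4. *keap1a*, the sensor that holds back the antioxidant factor NRF2, measured 0.39, 0.19, 0.25 and 0.07 on day 5 and -0.12, -0.55, -0.45 and -0.42 on day 4 (0.61 ± 0.09 SE, adjusted p = 8.88e-05). *jdp2b*, an AP-1 family repressor, rose (0.55, adjusted p = 0.00136). The largest called change of the list was the rise of the glutathione peroxidase gene *gpx1b* (0.77, adjusted p = 0.00687). Within scan batch 2, *gpx1b* was not called (adjusted p = 0.0564). *gclm*, a subunit of the enzyme that starts glutathione synthesis, fell (-0.54, adjusted p = 0.00305; -0.50 and adjusted p = 0.0545 without replicate 2), as did the metallothionein gene *mt2* (-0.53, adjusted p = 0.000682). The immediate early genes *fosab* (0.28), *egr1* (0.20) and *junba* (0.12) were not called.

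Metabolic lists held a few called genes. *hmgcs1*, an early enzyme of cholesterol synthesis, was at -3.94 ± 0.24 on day 5 and -3.25 ± 0.23 on day 4 (SD, n = 4, adjusted p = 0.000624). It was 1 of 3 falls among 15 genes of that pathway (20.0%, beside 7.33% of all named genes). The falls numbered 2 without replicate 1, 2 or 4 and 1 within scan batch 2, where *hmgcs1* was not called (adjusted p = 0.0663). *cpt2*, which brings fatty acids into the mitochondrial matrix, fell (-0.62, adjusted p = 0.000514), while *fbp1a*, of gluconeogenesis, rose by 0.52 (adjusted p = 0.000215). Within scan batch 2, *cpt2* was not called (adjusted p = 0.0516). Their list of 30 genes of gluconeogenesis and fasting had 1 rise and 2 falls. These shares of 3.33% and 6.67% were below the 3.89% and 7.33% of all named genes. Among 56 nuclear genes of the mitochondrial respiratory chain 5 fell and none rose, a share of 8.93% beside the 7.33% of all named genes that fell. *atp5mc1*, of the membrane ring of ATP synthase, was the largest of these falls at -0.51 (adjusted p = 0.000352), with only 1 of its 3 probes called. Of 24 genes in the pigment cell list 4 rose (16.7%) and 2 fell (8.33%), beside 3.89% and 7.33% of all named genes. The rises were *pnp4b*, *bco1* (0.83, adjusted p = 0.00147), *pnp5a* (0.59, adjusted p = 0.0179) and *scarb1* (0.52, adjusted p = 0.0311). Without replicate 1, 2 or 3 the list had 2 rises. The falls were general purine synthesis genes. *pnp4b*, an iridophore enzyme, was at 6.38 ± 0.23 on day 5 and 5.04 ± 0.55 on day 4 (adjusted p = 0.00114, lost without replicate 2 at 0.0725), and *gart* (-0.53, adjusted p = 0.00462) and *atic* (-0.52, adjusted p = 0.00549) fell, the second not without replicate 2 (adjusted p = 0.0994).

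Glia and myelin genes gave 3 rises and 1 fall in 18 (16.7% and 5.56%, beside 3.89% and 7.33% of all named genes). The rises were the myelin proteins *plp1b* (0.59, adjusted p = 0.00471) and *mpz* (0.49, adjusted p = 0.0347) and the glutamate transporter *slc1a3a* (0.47, adjusted p = 0.00912), and the fall was *ndrg1a* (-0.43, adjusted p = 0.0267). No gene of this list was called without replicate 3. Of 65 genes of neural progenitors and early neurons 3 fell, a share of 4.62% beside the 7.33% of all named genes. They were *elavl1b* (-0.27, adjusted p = 0.0474), *tuba1b* (-0.28, adjusted p = 0.0203) and *tubb5* (-0.49, adjusted p = 0.0145). None was called without replicate 3 or with the embryo channel alone.

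Fast skeletal muscle gave 1 rise and 1 fall in 62 genes (1.61% each, beside 3.89% and 7.33% of all named genes). The fall, *tnnt3a*, fast troponin T, was at 5.45, 5.54, 5.80 and 5.45 on day 5 and 6.27, 8.01, 6.33 and 6.05 on day 4 (-1.11, adjusted p = 0.00977), with replicate 2 of day 4 far above the rest, and was not called without replicate 1 (-1.2, adjusted p = 0.0564) or 2 (-0.65, adjusted p = 0.244). *myoz2b*, a protein of the muscle Z-disc, had the largest fall of all named genes in the ratio (-1.83, adjusted p = 0.0231), but a difference of 0.18 in the opposite direction with the embryo channel alone (adjusted p = 0.809), and the call was lost without replicate 1, 3 or 4 (adjusted p = 0.118, 0.116 and 0.16). *elovl1a*, which lengthens fatty acids, came next (-1.24, adjusted p = 0.021) with overlapping groups, and was not called without replicate 1, 2 or 4 (adjusted p = 0.144, 0.0826 and 0.164). *fkbp5*, also among the 15 largest falls, lost its call without replicate 1, 3 or 4, as given above. Other genes of the 15 were steadier. *abcf2a* (-0.95, adjusted p = 0.000883), *tmem110l* (-0.91, adjusted p = 3.9e-05), *chchd4a*, which forms disulfide bonds in mitochondria (-0.88, adjusted p = 2.5e-06), and the phosphatase gene *pgp* (-0.86, adjusted p = 1.16e-05) were apart between the days and called without any 1 experiment.

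limma called no gene among 22 of the heart (1 above and 1 below 0 at an unadjusted p under 0.05), 52 of the epidermis (1 and 2), 59 of synapses and mature neurons (4 and 1), 26 of glycolysis (none and 1), 14 of islet and gut hormones (none) and 13 of complement (1 and none). These lists cannot show that the tissues did not change, since true changes can be missed. On simulated data with the spread of these arrays 27 of 100 changes of 0.5 and 56 of 100 changes of 1 on the log2 scale were recovered. Only those probes of the 21495 were changed there, a smaller share than the 6.87% called here. The adjustment depends on that share, so these rates do not measure the power on the real arrays. Photoreceptor genes gave 1 rise and 1 fall in 52 (1.92% each), and cytosolic ribosomal protein genes 2 rises in 71 (2.82%). These shares were below the 3.89% of rises and 7.33% of falls over all named genes. Of the 71 ribosomal protein genes, however, 52 had a value above 0, beside 3241 of 7049 named genes, and the list median was 0.07. At an unadjusted p under 0.05, 18 of them lay above 0 and 5 below. Collagens and matrix genes gave 5 falls in 47, or 10.6% beside 7.33% of all named genes, and 3 without replicate 2 or 4. The falls were led by *col9a1b* of cartilage (-0.80, not called without replicate 3 at adjusted p = 0.0945).

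Set beside earlier steps, the step to day 5 was the smallest in number of calls. Day 2 differed from day 1 at 6857 probes (31.9%), day 3 from day 2 at 3427 (15.9%) and day 4 from day 3 at 3331 (15.5%), against 1476 for day 5 and day 4. Over the named genes, 1348 rose (19.1%) and 1660 fell (23.5%) on day 2 against day 1, 828 rose (11.7%) and 823 fell (11.7%) on day 3 against day 2, and 724 rose (10.3%) and 953 fell (13.5%) on day 4 against day 3. The step to day 4 shares the 4 arrays of day 4 with the step to day 5, so its values are only given side by side. In replicate 1 the vehicle control array of day 3 was in scan batch 1 and that of day 4 in scan batch 2. Each vehicle control pair of days 4 and 5 lay within 1 scan batch. What this difference does to the counts was not tested.

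Of 13 pancreatic genes 11 rose on day 4 against day 3, with a median of 3.09, before the median of 1.26 on day 5 against day 4. *amy2a* changed by 5.47 on day 4 and by 2.73 on day 5, and *ela2l* by 5.24 and 1.5. *cela1.5* changed by 2.47 and 2.25, and *ctrb.1* by 1.27 and 1.87. The mitotic list fell at each step, with medians of -0.28, -0.59, -0.64 and -0.30 from day 2 to day 5, whereas the replication list had -0.74, -0.52, -0.25 and -0.09.

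Of the 56 genes of the ER list, 4 rose and 29 fell on day 2 against day 1, with a median of -0.25. The list had a median of 0.10 on day 3 with 10 rises and 1 fall, and of -0.16 on day 4 with 3 rises and 14 falls. On day 5 it had 1 rise and 22 falls, with a median of -0.24. *hspa5* changed by 0.60 on day 3, -0.12 on day 4 and -0.79 on day 5. The proteasome list of 45 genes had 2 rises and 13 falls on day 2, and 6 rises and 1 fall on day 3 (median 0.05). It had 23 falls and 1 rise on day 4 and 26 falls on day 5. The splicing list of 81 genes had 12 rises and 40 falls on day 2. It had 30, 51 and 20 falls on days 3, 4 and 5, and no rise. Of all named genes, 19.1%, 11.7%, 10.3% and 3.89% rose at the steps to days 2, 3, 4 and 5. The shares that fell were 23.5%, 11.7%, 13.5% and 7.33%. Genes of the mitochondrial respiratory chain rose in 37, 38 and 32 of 56 at the steps to days 2, 3 and 4, and at the step to day 5 had 5 falls, near the share of all named genes. *bmal1a* changed by 0.26 on day 3, -0.56 on day 4 and -0.94 on day 5, and *cry4* by 0.23, -0.70 and -1.09.

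**Figure D4:**
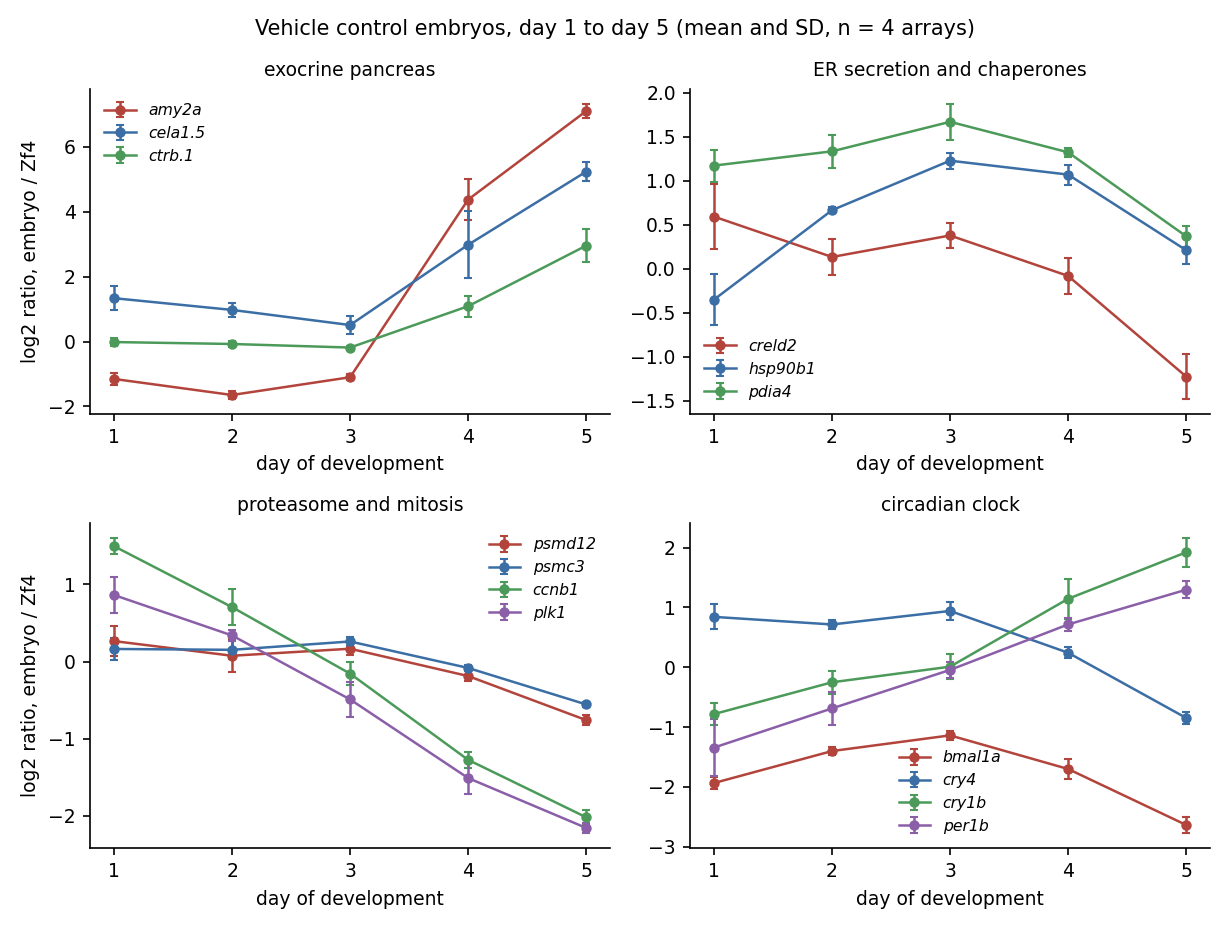
Mean log2 ratio of embryo to Zf4 signal with SD (n = 4 arrays) in vehicle control embryos on days 1 to 5 for genes of the exocrine pancreas, ER folding, the proteasome and mitosis, and the circadian clock. Pancreatic genes turn upwards after day 3, the ER genes *hsp90b1* and *pdia4* are highest on day 3, mitotic genes fall at every step, and *bmal1a* and *cry4* fall while *cry1b* and *per1b* rise from day 3 to day 5.

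The exposed embryos went through the same 2 days on arrays of their own, in the same 4 experiments. Of the 571 probes that rose in vehicle control embryos, 552 (96.7%) changed in the same direction in TCDD-exposed embryos, 320 (56.0%) were called there and none was called in the opposite direction. Of the 905 that fell, 875 (96.7%) had the same direction, 480 (53.0%) were called and none was called in the opposite direction. The median change was smaller in exposed embryos, at 0.399 against 0.518 for the rises and -0.285 against -0.384 for the falls. These probes were chosen for their change in vehicle control embryos, so that the size in the other set is given as a description. Over the named genes, 387 rose (5.49%) and 504 fell (7.15%) in exposed embryos.

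By list, exposed embryos had 6 rises and a median of 0.83 among the 13 pancreatic genes, against 8 and 1.26 in vehicle control. They had 10 falls and a median of -0.13 in the ER list, against 22 and -0.24, and 5 falls and 2 rises with -0.15 in the proteasome list, against 26 falls and -0.30. In the mitotic list they had 23 falls and -0.41, against 20 and -0.30, and in the replication list 14 falls and -0.27, against none and -0.09. *hspa5* changed by -0.21 (adjusted p = 0.341) in exposed embryos and by -0.79 in vehicle control, and *hsp90b1* by -0.22 (adjusted p = 0.395) and by -0.86. The test of the difference gave an adjusted p of 0.554 for both. No member of these lists passed that test, and the lists' differences were not tested.

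That test found 2 probes of 21495 (0.0093%), beside 281 (1.31%) where the unadjusted p was under 0.01 and 1231 where it was under 0.05. *f5*, coagulation factor V, did not change in a way that passed in vehicle control embryos, with 1.33, 1.53, 1.11 and 1.57 on day 5 and 1.69, 1.85, 1.05 and 1.43 on day 4 (-0.12, adjusted p = 0.831). In exposed embryos it rose by 1.19, and the difference of the changes was 1.31 ± 0.22 (SE, adjusted p = 0.0316). The second probe belonged to zgc:76926, which has no other name in the files. It was not above background on any vehicle control array of the 2 days, and in exposed embryos it averaged 4.93 ± 0.69 on day 5, above background on 4 of 4 arrays, while the arrays of day 4 were not above background (SD, n = 4; adjusted p = 0.0316 for the difference). Since 3 of its 4 groups were not above background, no size is given. In exposed replicate 3, the array of day 5 was scanned in another batch than that of day 4. With scan batch as a further block, a setting chosen after seeing the data, neither probe was called (adjusted p = 0.13 for both). Within scan batch 2, zgc:76926 alone was called. The count of 2 was 0 without replicate 1 or 3, 7 without replicate 2 and 1 without replicate 4.

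**Figure D5:**
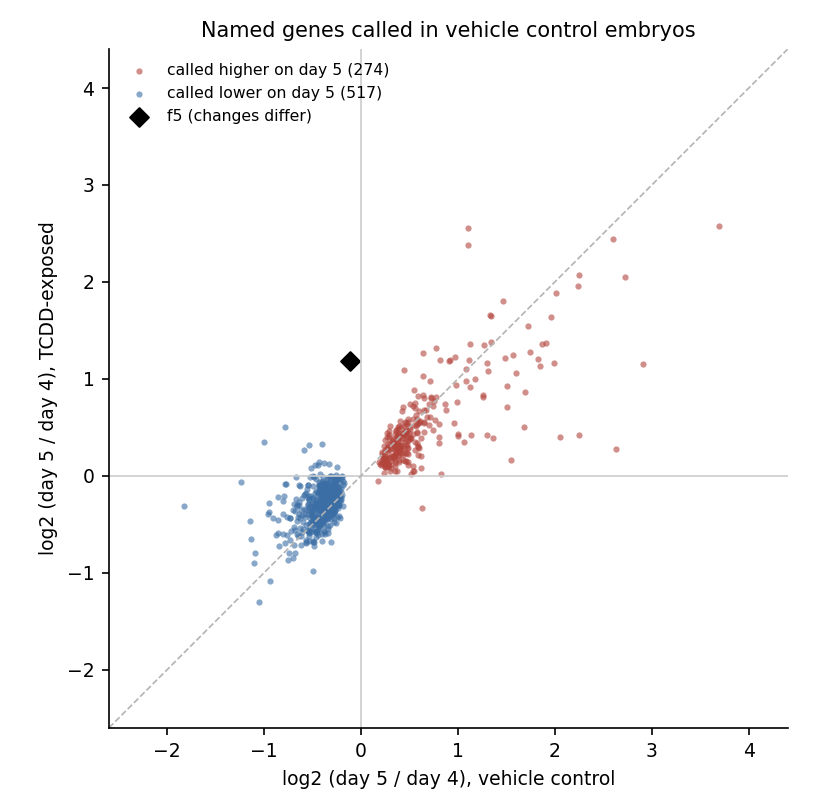
Log2 ratio of day 5 over day 4 in TCDD-exposed embryos (vertical) and in vehicle control embryos (horizontal) for the named genes called in vehicle control, 274 higher (red) and 517 lower (blue) on day 5, with the line of equal change dashed and *f5* as a black diamond. Of the points, 272 of 274 and 502 of 517 have the same sign on both axes, and *f5* lies near 0 on the horizontal axis and at 1.19 on the vertical one.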

How the data were processed

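Agilent zebrafish arrays were scanned by the authors, who extracted the spots with Feature Extraction 8.1.1. The deposited log10 ratios of Cy5 (embryo) over Cy3 (Zf4 reference), already background-corrected and dye-normalized, were multiplied to the log2 scale. Deposited intensity columns served for flags of background and saturation and for the alternatives. The number of arrays limits the precision. All 39 arrays entered 1 limma fit (limma 3.58.1, R 4.3.3, Python 3.11.15) of 10 group means with the experiment as a block and 26 residual degrees of freedom, on 21495 probes without control spots, leaving out outlier spots. P-values were adjusted by Benjamini-Hochberg over all probes. The methods describe independent repeats of the experiment, and same-numbered arrays of the 2 days deviated together (r = 0.122 to 0.252), so the pairing was kept. For different numbers r was -0.156 to -0.003. Deviations from a group mean cancel out over the replicates, so these negative values follow in part from the positive ones and are no separate evidence.

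Each gene was represented by 1 probe. Of 7847 probes with a RefSeq accession 7323 matched the gene table and 10093 probes had a gene symbol. Probes of near-identical copies cannot be told apart. Genes were named by rule: the 15 largest rises and 15 largest falls that changed alike in 4 experiments, up to 5 called members of each list, and the genes whose change differed between exposures. Further genes were named after their values were seen. The members and lists were chosen with earlier results of these data known. Genes that a list's name pattern caught without belonging to it, and duplicates, were dropped by name. Of these, 1 (sfrs3, an old name of a splicing gene) was dropped after its values were seen. *lsm1*, a decapping subunit, was not dropped and stayed in the splicing list. The script was tested on simulated data, where 27 of 100 changes of 0.5 and 56 of 100 of 1 were recovered. The share of changed probes was smaller there than the share called in the real data. Alternatives covered the block, the arrays fitted, array weights, scan batch, background correction, centring, the embryo channel alone, dim and outlier spots and each replicate left out. The values of 1 called intestinal gene are not reported here.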

Additional observations from a re-analysis of the deposited data

Results flagged for a closer look

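The change over the last day differed between the exposures at 2 probes. The change in TCDD-exposed embryos exceeded that in vehicle control embryos by 1.305 for *f5* and by 3.854 for zgc:76926 on the log2 scale (limma, adjusted p = 0.0316 for both). The second is a fitted difference against arrays that were not above background, and is no measured size. With scan batch as a further block, chosen after seeing the data, the adjusted p was 0.13 for both.

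In 23 of 374 groups of 4 values, 1 value lay far from the other 3 by Dixon's criterion, and chance marks about 1 in 20 groups. On day 5, replicate 1 stood apart for *atp5f1d* (0.918), *crygm1* (1.362), *cyp2ad2* (2.581), *dnajc3a* (1.923) and *fam83fb* (4.289). Replicate 2 of day 5 stood apart for *xpnpep2* (5.842), replicate 3 for *atp6v1c1b* (2.023), *nkx6.1* (1.038) and *sult2st1* (0.945), and replicate 4 for *fkbp5* (-3.315).

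On day 4, replicate 2 stood apart for *ndrg1a* (1.647), *otx5* (2.806), *psmc2* (-0.681) and *tnnt3a* (8.008). Replicate 3 of day 4 did so for *col9a1b* (5.364), *cyp2p6* (0.077), *hgd* (3.212), *irx3b* (-0.876) and *rpl35* (-0.769), and replicate 4 for *abcf2a* (-1.638), *gclm* (-1.03) and *pdia6* (-0.13). The median change of the pituitary and thyroid list in replicate 4 was 0.105, with the nearest of the others at 0.0.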

How the results depend on the processing

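The counts of calls moved with the setting. The number of probes called was 1476. It became 0 with the 8 arrays alone, 2349 with array weights, 786 within scan batch 2 and 785 with the embryo channel alone. Without 1 replicate it was 677 to 911. Rises, 571, became 0, 871 and 344 under the first 3 of these settings and 295 to 370 without 1 replicate. Falls, 905, became 0, 1478, 442 and 370, and 380 to 585 without 1 replicate. Without the replicate block, the pairing unused, 1063 probes were called, 1061 of them shared. The 2 probes whose change differed between exposures became 0 without the block, 1 with array weights, 1 without dim probes and 0 to 7 without 1 replicate. In settings chosen after seeing the data, they became 0 with scan batch as a further block and 1 within scan batch 2. Falls in the proteasome list, 26, became 10 with the embryo channel and 11 to 22 without 1 replicate, in mitosis, 20, they became 12 and 10 to 16, and in mRNA splicing, 20, they became 5 and 5 to 13. In the circadian list the 4 rises became 0 to 4 and the 4 falls 2 to 3 without 1 replicate. *myoz2b* had 0.18 with the embryo channel and -1.83 in the ratio. The causes were not tested. Of the 129 genes named by rule, 18 lost their call without the block, 51 with the embryo channel and 128 with the 8 arrays alone. Signal limits what can be read: 2194 probes were not above background on any of the 8 arrays.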

Other observations

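Several further gene families were described after their values were seen, so their counts are given without a test. The tubulins *tuba1b* and *tubb5* and cytochromes P450 such as *cyp2ad2* and *cyp2n13* were already on lists above. The counts of these families thus overlap with those of the lists. Of all named genes, 3.89% rose and 7.33% fell. Mitochondrial ribosomal protein genes held 8 falls and no rise in 29, with a median of -0.246, and genes of mitochondrial protein import 5 falls in 13, with a median of -0.323. Among tubulins 6 of 13 fell, and among genes of the Arp2/3 complex, cofilins and profilins, which shape actin filaments, 4 of 14 fell. Rises were found for 3 of 6 arrestin-domain and TXNIP genes (median 0.481), 3 of 6 genes of the ATG8 family and SQSTM1, which act in autophagy, and 7 of 32 cytochromes P450. Without 1 replicate several counts were lower. The ATG8 family and SQSTM1 had no rise without replicate 4 or with the embryo channel alone, and mitochondrial ribosomal proteins had 3 falls without replicate 2 or 4. Tubulins had 2 falls and cytochromes P450 2 rises without replicate 3, mitochondrial import had 3 falls without replicate 4, and the arrestin-domain genes had 2 rises without replicate 1, 2 or 4. With the embryo channel alone, mitochondrial import and the Arp2/3 list had 1 fall each, mitochondrial ribosomal proteins and tubulins 2 falls each, and cytochromes P450 3 rises. In TCDD-exposed embryos the same families had 9 falls of 29, 4 falls of 13, 2 falls of 13, 2 falls of 14, 4 rises of 6, 3 rises of 6 and 7 rises of 32.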
